A study of Sus scrofa with 6 samples.

Results

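Matrix metalloproteinases (MMPs) are zinc-dependent enzymes that cut the proteins of the extracellular matrix, and the tissue inhibitors of metalloproteinases (TIMPs) block them. The 10 genes described here are MMP1, MMP2, MMP3, MMP9, MMP13 and MMP14 with TIMP1, TIMP2, TIMP3 and TIMP4, chosen as named genes of this protease system. Of these, 6 were found by the symbol of their gene model and 4 (MMP3, TIMP2, TIMP3 and TIMP4) by the protein name in the deposited annotation, among 19670 gene models in all. A second model carried the protein name of MMP14 (ENSSSCG00000022911) and another that of a TIMP1-like protein (ENSSSCG00000002699), which gave 12 models. RNA came from primary cells freed by enzymes from the external ear cartilage of 1 pig, 4 months old, of the Duroc x (Landrace x Large White) breed and wild type for PPARD, the nuclear receptor that GW0742 activates. The cells had 24 h with GW0742 or with DMSO, its solvent, and 3 libraries were sequenced from each group on an Ion Proton instrument. No source used here states that the 3 cultures of a group were separate, so each p-value measures the spread between libraries of 1 animal's cells, which may be technical.

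MMPs are made as inactive proenzymes and work only after the propeptide is removed. The collagenases MMP1 and MMP13 can cut the intact triple helix of fibrillar collagen, the gelatinases MMP2 and MMP9 degrade the unwound chains, and stromelysin-1 (MMP3) cuts proteoglycans and activates other MMPs. MMP14 sits in the cell membrane and, with TIMP2 as its partner, activates pro-MMP2. In cartilage, MMP13 is known as the main collagenase acting on type II collagen and as a product of hypertrophic chondrocytes. TIMP3 differs from the other inhibitors in that it binds to the matrix and also inhibits aggrecanases. Transcripts do not show how much enzyme is active.

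The libraries held 13133894 to 16913742 reads, and 14146 models were deep enough to test. In these libraries the treatment was visible in ANGPTL4, a known PPARD target, at 16, 26.5 and 21.5 CPM (counts scaled to library size) in DMSO replicates 1, 2 and 3 and at 200, 176 and 185 CPM in GW0742 replicates 1, 2 and 3 (log2 3.14 ± 0.15, SE, edgeR adjusted p = 0.000193). Of 5 tested direct PPARD targets 4 rose in edgeR, among them CPT1A, which brings fatty acids into mitochondria (log2 1.95 ± 0.14, adjusted p = 0.00151), and catalase (CAT, log2 0.75 ± 0.06, adjusted p = 0.00384). All 10 listed chondrocyte markers had reads, from FMOD at 4359, 4335 and 4393 CPM with DMSO down to the collagen chain COL9A1 at 1.72, 1.65 and 1.86 CPM. Of these 10, 8 had a log2 value below 0 (median -0.15), and 4 were lower without overlap, beside 12.1% of all tested models. At an unadjusted p under 0.05 in edgeR 3 were lower, and the share of all models lower at that level was not counted. ACAN fell in edgeR. DESeq2 called ACAN and COL11A1 lower, beside 1.65% of tested models (COL11A1 log2 -0.28 ± 0.07, DESeq2 adjusted p = 0.00683, edgeR adjusted p = 0.114). Over all tested models 11.4% were higher without overlap, 7.93% were higher at an unadjusted p under 0.05 in edgeR, and DESeq2 called 1.46% higher. These shares, with the 12.1% lower without overlap and the 1.65% that DESeq2 called lower, stand beside the counts of every list below. Fibroblast markers spanned a wide range with DMSO, from COL1A2 at 37805 to 42039 CPM and VIM at 13750 to 14078 CPM to THY1 at 686 to 727 CPM and LUM at 32.8 to 47.2 CPM. Whether the lower chondrocyte markers had a part in the values of the members was not tested. Fewer cells of a type and less RNA per cell cannot be told apart in such bulk libraries.

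The members fell into an abundant and a low class, set side by side here in RPKM (reads scaled to model length and library size), which allows levels of different genes to be compared. With DMSO the order was TIMP1 at 476 ± 50 RPKM (SD, n = 3), TIMP2 at 453 ± 30, MMP2 at 227 ± 15, MMP14 at 101 ± 3.7 and TIMP3 at 61.9 ± 14. A gap followed, with MMP9 at 2.53 ± 0.45 RPKM, MMP1 at 1.24 ± 0.18, TIMP4 at 0.872 ± 0.31, MMP13 at 0.341 ± 0.03 and MMP3 at 0.0267 ± 0.024. TIMP1 overlapped with TIMP2 in that order, and MMP1 with TIMP4, while the other neighbours did not overlap between libraries. Averaged over the 6 libraries, TIMP1, TIMP2, MMP2, MMP14 and TIMP3 lay above 95% of all models in RPKM, between the percentiles 95.1 and 99.2. MMP9, MMP1, MMP13 and TIMP4 lay at the percentiles 55.6, 48.6, 41.7 and 32.7, and MMP3 at 6.85. With GW0742 the first 7 places stayed as they were, and MMP13 (3.39 ± 2.2 RPKM) moved ahead of TIMP4 (0.592 ± 0.3 RPKM). There TIMP1 was separate from TIMP2, and MMP14 overlapped with TIMP3, MMP9 with MMP1, and MMP1 with MMP13. Models differ in how much of a transcript they cover, from 516 bases for TIMP3 and 1413 for MMP13 to 3873 for MMP14, which bears on every level compared between genes.

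**Figure D1:**
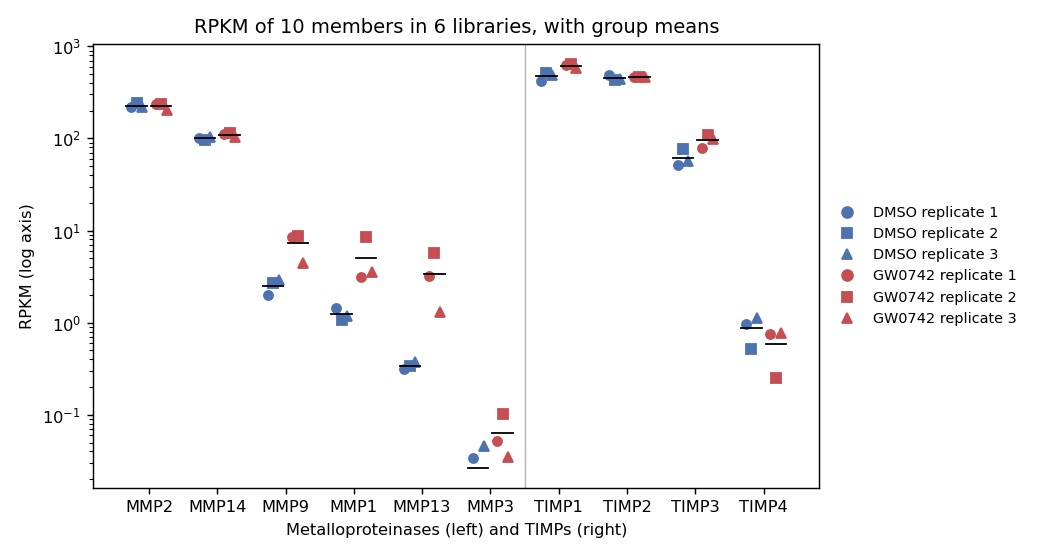
RPKM on a log axis of the 10 members in each library, DMSO in blue and GW0742 in red, with black bars for group means. MMP9, MMP1 and MMP13 lie below 10 RPKM and apart between the groups, while MMP2, MMP14, TIMP1, TIMP2 and TIMP3 lie above 50 RPKM in every library. MMP3 in DMSO replicate 2 is at 0 and is not drawn.

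Among the enzymes of the low class, MMP13, MMP1 and MMP9 stood higher in every GW0742 library than in any DMSO library. None of these 3 passed the threshold of edgeR over all models. MMP13 was the most different, with 8, 7 and 9 reads in DMSO replicates 1, 2 and 3 against 64, 134 and 30 in GW0742 replicates 1, 2 and 3. On the CPM scale these levels were 0.475, 0.526 and 0.540 in the DMSO libraries and 4.90, 8.35 and 1.96 in the GW0742 libraries. The DMSO libraries lay close together, within 1.14-fold, while the GW0742 libraries spread 4.26-fold, with replicate 2 highest and replicate 3 lowest. Even replicate 3 was 3.63 times the highest DMSO library. The fold was 9.78 (95% interval 4.15 to 23.0; log2 3.29 ± 0.54, SE, edgeR adjusted p = 0.0609). It rests on 24 DMSO reads in all, whose counting error alone allows 15.4 to 35.7 (exact Poisson interval, 95%). MMP13 met the depth filter, 0.651 CPM in 3 libraries, only through its GW0742 libraries, so its presence among tested members is itself tied to being higher there.

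MMP1, the interstitial collagenase, had 3.44, 2.63 and 2.88 CPM in the DMSO libraries and 7.5, 19.7 and 8.63 CPM in the GW0742 libraries. GW0742 replicate 2 was 6.60 times the DMSO mean, and replicates 1 and 3 were 2.52 and 2.89 times that mean. The groups did not overlap, the lowest GW0742 library being 2.18 times the highest DMSO library (log2 2.00 ± 0.37, edgeR adjusted p = 0.073).

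MMP9, the inducible gelatinase, had 5.46, 7.43 and 7.92 CPM with DMSO and 23.1, 23.3 and 12.2 CPM with GW0742. Replicates 1 and 2 of GW0742 were nearly equal, and replicate 3 was lower, at 1.54 times the highest DMSO library. The fold was 2.81 (95% interval 1.86 to 4.25; log2 1.49 ± 0.26, edgeR adjusted p = 0.0651). The level of MMP9 relative to MMP2, the other gelatinase, was 0.00932, 0.0110 and 0.0130 in RPKM with DMSO and 0.0362, 0.0369 and 0.0221 with GW0742.

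MMP3 was close to absent, with 1, 0 and 1 reads in the DMSO libraries and 1, 3 and 1 in the GW0742 libraries. No library exceeded 3 reads, the floor used here, which corresponds to between 0.178 and 0.230 CPM, so no fold is given and a difference was not detectable at this depth.

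**Figure D2:**
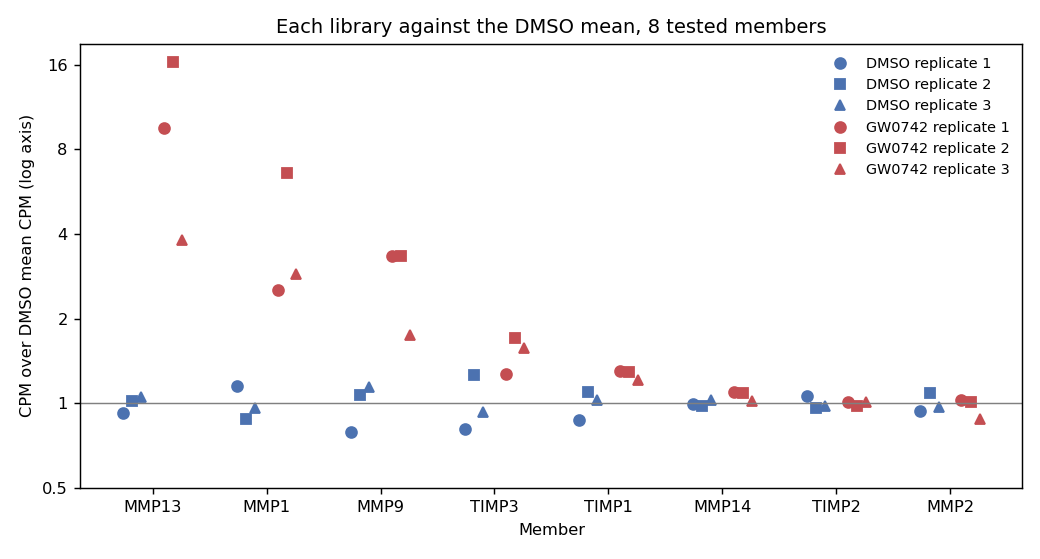
CPM of each library divided by the mean CPM of the DMSO libraries, on a log axis, for the 8 tested members. GW0742 replicates 1, 2 and 3 lie at 9.55, 16.3 and 3.82 for MMP13 and at 2.52, 6.60 and 2.89 for MMP1, while MMP2 and TIMP2 stay between 0.881 and 1.09 in all libraries.

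The abundant enzymes MMP2 and MMP14 differed little. MMP2 had 657, 762 and 681 CPM with DMSO and 718, 707 and 617 CPM with GW0742. Its groups overlapped, with the highest value in a DMSO library and the lowest in a GW0742 library. The fold was 0.973, with a 95% interval of 0.854 to 1.11 (edgeR adjusted p = 0.846). MMP14 had 422, 415 and 440 CPM with DMSO and 469, 465 and 434 CPM with GW0742, so that 1 GW0742 library fell within the DMSO range. The fold was 1.07 (0.977 to 1.18, edgeR adjusted p = 0.428). Its second model pointed the other way, at 51.2, 56.2 and 46.9 CPM and 42.5, 47.7 and 44.8 CPM (log2 -0.19 ± 0.09, edgeR adjusted p = 0.312). Estimated reads can be divided between models of 1 protein, so both values are uncertain. With the models summed, the log2 value of MMP14 was 0.07 ± 0.06. Changes of the size seen in MMP13, MMP1 or MMP9 lie outside the intervals of MMP2 and MMP14.

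Of the inhibitors, TIMP1 and TIMP3 stood higher with GW0742 by modest amounts, neither past the threshold of edgeR, and TIMP2 was nearly constant. TIMP1, an inhibitor of most secreted MMPs, had 412, 521 and 490 CPM with DMSO and 618, 613 and 576 CPM with GW0742. Its groups did not overlap, though DMSO replicate 1 was low and the lowest GW0742 library was only 1.11 times the highest DMSO library (fold 1.27, 95% interval 1.11 to 1.46, edgeR adjusted p = 0.125). The TIMP1-like model had 1 read in each DMSO library and 1, 2 and 2 reads in the GW0742 libraries, too few for any comparison. TIMP3 had 27.4, 42.9 and 31.5 CPM with DMSO and 43.0, 57.8 and 53.3 CPM with GW0742. DMSO replicate 2 and GW0742 replicate 1 nearly met, with a ratio of 1.00 (fold 1.52, 95% interval 1.17 to 1.99, edgeR adjusted p = 0.141). Without DMSO replicate 2 its log2 value went from 0.61 ± 0.17 to 0.80 ± 0.14, still short of the threshold (edgeR adjusted p = 0.0911).

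TIMP2 had 566, 513 and 524 CPM with DMSO and 539, 521 and 540 CPM with GW0742. The GW0742 libraries lay inside the DMSO range, and the interval of the fold was 0.909 to 1.10 (edgeR adjusted p = 0.990). TIMP4 was low, with 10, 4 and 12 reads in the DMSO libraries and 6, 2 and 7 in the GW0742 libraries, and did not pass the depth filter. The groups overlapped, and without a filter edgeR gave a log2 value of -0.67 ± 0.53 (adjusted p = 0.596). In the RefSeq gene table of the pig assembly Sscrofa11.1, TIMP1, TIMP3 and TIMP4 overlap the synapsin genes SYN1, SYN3 and SYN2, which encode proteins of synaptic vesicles, and TIMP2 overlaps CEP295NL. The libraries carry no stated strand, so reads of such pairs may be mixed. SYN1 had 0.264 to 0.449 RPKM over the 6 libraries, against 420 or more for TIMP1. SYN2 had 0.26 to 0.5 RPKM, which is close to the 0.252 to 1.12 RPKM of TIMP4. SYN3 and CEP295NL had no matched model, so no level is given for them.

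Summed over members, inhibitors outweighed enzymes in all libraries. The 4 TIMPs summed to 959, 1022 and 995 RPKM with DMSO and to 1165, 1209 and 1146 RPKM with GW0742. The 6 MMPs summed to 322, 345 and 330 RPKM and to 361, 376 and 315 RPKM. The TIMP sum was therefore 2.98, 2.96 and 3.02 times the MMP sum with DMSO and 3.23, 3.21 and 3.64 times with GW0742. These sums leave out the second models. That of MMP14 had 31.4, 33.5 and 28.3 RPKM with DMSO and 25.8, 30 and 27.2 RPKM with GW0742. Counting it would lower the ratios to the MMP sum and raise the share of MMP14 given below. TIMP1 and TIMP3 carried the higher TIMP sum: TIMP1 made up 47.9 ± 3.6% of it with DMSO and 52.6 ± 1.3% with GW0742 (SD, n = 3), and the share of TIMP2 went from 45.8 ± 4.5% to 39.2 ± 1.1%. Among enzymes, MMP1, MMP9 and MMP13 together gave 1.17, 1.19 and 1.35% of the MMP sum with DMSO and 4.10, 6.10 and 2.97% with GW0742. MMP2 gave 68.4 ± 2.1% and 64.2 ± 0.74%, and MMP14 30.3 ± 2.0% and 31.4 ± 1.3%. MMP1, MMP9 and MMP13 thus gave at most 6.10% of the MMP sum in any library, and the MMP sums of the groups overlapped. The makeup of the collagenases also differed by library: MMP13 stood at 0.218, 0.315 and 0.310 times the RPKM of MMP1 with DMSO, and at 1.03, 0.669 and 0.361 times with GW0742. In GW0742 replicate 1 both collagenases were thus at a like level, while in GW0742 replicate 3 the ratio was near that of the DMSO libraries.

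Of 10 members, 8 were tested, and none passed an adjusted p under 0.05 in edgeR over all models, where 0.262% of models did. At an unadjusted p under 0.05 there were 5, MMP13, MMP1, MMP9, TIMP1 and TIMP3, all higher with GW0742, against 7.93% of tested models that were higher at that level. By unadjusted p they ranked 52, 102, 72, 433 and 614 among the 14146 models. DESeq2 called the same 5 higher, at adjusted p-values of 9.77e-07, 4.20e-06, 2.12e-06, 0.0067 and 0.0142, where it called 1.46% of tested models higher. It called none of the 8 lower, against 1.65% of models, and limma called none of the 8. Groups did not overlap in these 5, all with GW0742 above DMSO, as in 11.4% of tested models, and no tested member lay the other way without overlap, as 12.1% of models did. The 8 log2 values had a median of 0.48, beside -0.0015 over all tested models. The members were chosen with earlier results of these data known, and MMP13 met the filter through 1 group, so these counts describe the members and support nothing further.

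**Figure D3:**
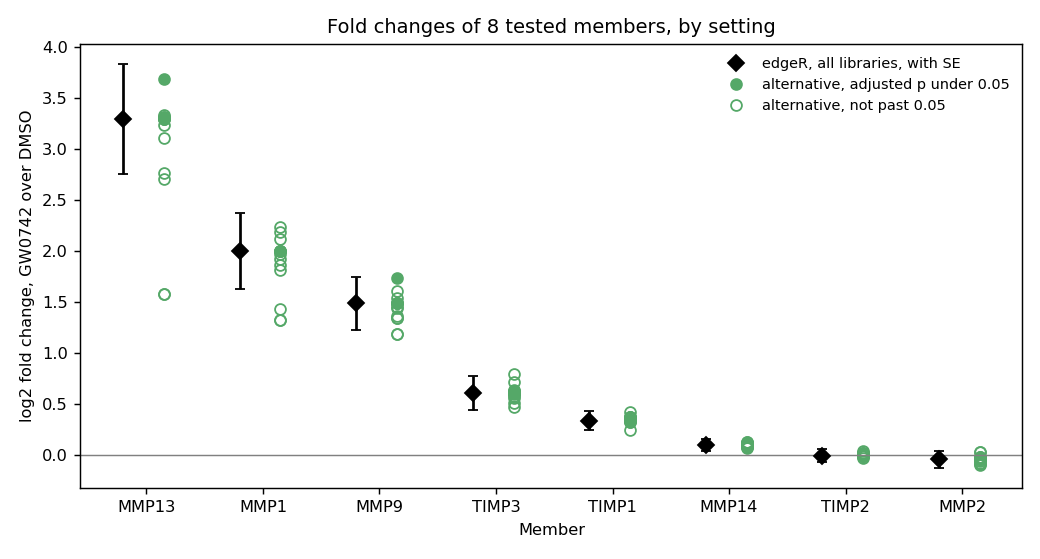
Log2 fold changes of the 8 tested members, with the edgeR value of all libraries and its SE in black and the alternatives as green circles, filled where the adjusted p was under 0.05. The values of MMP13, MMP1, MMP9, TIMP3 and TIMP1 lie above 0 throughout. Those of MMP14 do so too, at 0.07 to 0.13 and never past the threshold, and those of MMP2 and TIMP2 lie on both sides of 0.

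How far MMP13, MMP1 and MMP9 stood from DMSO depended on which GW0742 libraries were in the fit. Without GW0742 replicate 3 edgeR called MMP13 (log2 3.68 ± 0.32, adjusted p = 0.00983) and MMP9 (log2 1.74 ± 0.16, adjusted p = 0.013), while MMP1 did not pass (adjusted p = 0.066). Without GW0742 replicate 2 the log2 value of MMP13 went to 2.71 ± 0.45 (edgeR adjusted p = 0.0712) and that of MMP1 to 1.43 ± 0.20 (edgeR adjusted p = 0.0571), and that of MMP9 to 1.34 ± 0.28 (edgeR adjusted p = 0.109). No other single library brought a member past the threshold, and none reversed MMP13, MMP1, MMP9, TIMP1 or TIMP3. On log2(RPKM + 1), which compresses low levels, limma gave 1.58 for MMP13, 1.33 for MMP1 and 1.19 for MMP9, with adjusted p-values of 0.183, 0.192 and 0.168.

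The spread of MMP13 between GW0742 libraries was wider than that of the PPARD target genes in the same libraries. ANGPTL4 varied 1.14-fold and PDK4, a kinase that blocks pyruvate dehydrogenase and is also low in DMSO, 1.35-fold, beside 4.26-fold for MMP13, 2.63-fold for MMP1 and 1.91-fold for MMP9. PDK4 had 50, 83 and 79 reads in GW0742 replicates 1, 2 and 3, a depth like that of MMP13. These spreads were not compared by a test.

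Of 17 other MMPs, 10 had a model and 7 were tested, and none passed in edgeR or limma, while 3 were higher at an unadjusted p under 0.05 in edgeR. The median of their log2 values was 0.22, the range -0.23 to 0.84, and 4 of the 7 had groups that did not overlap, all higher. DESeq2 called 1, MMP19, an MMP of connective tissue, at 60.7, 63.1 and 60.4 CPM with DMSO and 72.2, 74.8 and 81.6 CPM with GW0742 (DESeq2 adjusted p = 0.0238, edgeR adjusted p = 0.0961). The most abundant, MMP23B, stood at 66.8 RPKM with DMSO and 84.0 RPKM with GW0742 (edgeR adjusted p = 0.173), with DMSO libraries that overlapped in RPKM with those of TIMP3. In the RefSeq table MMP1, MMP3, MMP12 and MMP13 lie next to each other among coding genes, in a row of 8 MMP genes on chromosome 9 that opens with MMP7 and MMP20 and continues with MMP27 and MMP8. Of this row only MMP1 and MMP13 were tested. MMP3 and MMP12, which lie between them, had at most 3 reads in any library, MMP7 at most 2 and MMP20 at most 4, while MMP8 and MMP27 had no matched model. MMP2, MMP9 and MMP14 lie on chromosomes 6, 17 and 7.

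Of 21 listed activators and inhibitors, among them the plasminogen system, furin-type convertases and cathepsins, 16 were tested, none passed in edgeR or limma, 3 were higher at an unadjusted p under 0.05 in edgeR, and 4 were higher and 0 lower without overlap. Their log2 values ran from -0.17 to 0.92 with a median of 0.05, the highest being the cathepsin CTSS at 6 to 10 reads with DMSO and 11 to 23 with GW0742 (edgeR adjusted p = 0.214). DESeq2 called 1, the collagen-degrading cathepsin CTSK, at 151 CPM in each DMSO library and 180, 204 and 184 CPM with GW0742 (log2 0.32 ± 0.06, DESeq2 adjusted p = 0.00165, edgeR adjusted p = 0.0776). SERPINE2, an abundant inhibitor of serine proteases, stood at 965 ± 67 RPKM with DMSO and 1003 ± 107 RPKM with GW0742 (SD, n = 3). PLAU, the urokinase activator, had a log2 value of 0.06 ± 0.06, FURIN, which cleaves the propeptide of MMP14, of -0.08 ± 0.07, and the membrane inhibitor RECK of 0.25 ± 0.16, with edgeR adjusted p-values of 0.645, 0.573 and 0.458.

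Of 16 listed transcription factors known to drive MMP promoters, 13 had a matched model, and FOSB, JUN and JUND were not among them. Tests covered 13 models. None passed in edgeR or limma, and 4 were higher at an unadjusted p under 0.05 in edgeR, with log2 values from -0.21 to 4.19 and a median of 0.07. The highest was 1 of the models of CEBPB (ENSSSCG00000028739), at 0, 21 and 7 reads with DMSO and 8, 471 and 56 with GW0742. Its groups overlapped, and GW0742 replicate 2 held most of the reads (edgeR adjusted p = 0.184), while the other CEBPB model had a log2 value of 0.07 ± 0.13. JUNB, a subunit of AP-1, was the 1 that DESeq2 called, at 138, 151 and 163 CPM with DMSO and 190, 189 and 193 CPM with GW0742 (DESeq2 adjusted p = 0.00253, edgeR adjusted p = 0.0867). Its GW0742 libraries lay within 1.02-fold. FOS, another AP-1 subunit, had 21, 11 and 19 reads with DMSO and 18, 61 and 28 with GW0742 (edgeR adjusted p = 0.216). RUNX2, a regulator of MMP13 in hypertrophic chondrocytes, had 3.32, 3.83 and 4.14 CPM with DMSO and 5.05, 6.11 and 6.86 CPM with GW0742. These groups did not overlap, yet RUNX2 was not called by edgeR (log2 0.68 ± 0.19, adjusted p = 0.139) or by DESeq2 (adjusted p = 0.175). FOSL2 and HIF1A were the most abundant, with log2 values of 0.12 ± 0.10 and -0.05 ± 0.07. Whether any of these factors had a part in the values of the members was not tested.

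Of 14 genes listed as cytokines, receptors and related genes of MMP induction, 12 had a matched model. The cytokine IL1B and the enzyme gene PTGS2 were not among them. None of the 9 tested passed in edgeR, DESeq2 or limma. Only the lower CXCL8 stood at an unadjusted p under 0.05 in edgeR (median log2 0.12). Among the ligands, LIF stood highest at 9.12 to 10.4 CPM in DMSO libraries and 9.54 to 13.8 CPM in GW0742 libraries (edgeR adjusted p = 0.455). IL1A stood at 2.79, 2.70 and 2.40 CPM with DMSO and 2.45, 3.99 and 3.07 CPM with GW0742, TNF at 2 to 5 reads, and IL6 at 13 reads in DMSO replicate 2, 29 in GW0742 replicate 3 and 0 in the other libraries. CXCL8 lay lower with GW0742, at 4.21, 3.15 and 3.72 against 1.45, 2.49 and 1.96 CPM (edgeR adjusted p = 0.139). The collagen receptor DDR2 and the TNF receptor TNFRSF1A, the most abundant of the list, had log2 values of 0.01 ± 0.06 and -0.03 ± 0.08.

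Of 8 listed genes that mark the hypertrophic chondrocyte, in which MMP13 is usually found, ALPL had no matched model. IHH, at 0 to 8 reads, and IBSP, at 0 to 3 reads, were too low to be tested, which left 5 tested models. Of these, 1 had a log2 value above 0, and the median was -0.05. None passed in edgeR or limma, and at an unadjusted p under 0.05 in edgeR 1 was higher and 1 lower. Without overlap 0 were higher and 2, COL10A1 and PTH1R, were lower, beside 12.1% of all tested models that were lower. COL10A1, the collagen of hypertrophic cartilage, had 2.61, 2.55 and 3.00 CPM with DMSO and 2.45, 2.18 and 2.29 CPM with GW0742 (edgeR adjusted p = 0.578). SPP1, which encodes osteopontin, had 83.5, 137 and 107 against 171, 126 and 180 CPM (edgeR adjusted p = 0.199). PTH1R was the 1 that DESeq2 called, lower (DESeq2 adjusted p = 0.0011, edgeR adjusted p = 0.0651), and VEGFA, an angiogenic factor, had a log2 value of -0.05 ± 0.12. Among 8 tested substrates of the enzymes, aggrecan (ACAN) alone fell in edgeR, at 853, 810 and 785 against 583, 589 and 558 CPM (log2 -0.50 ± 0.06, adjusted p = 0.0185), and limma called none of the 8. The collagens COL1A2, COL2A1, COL3A1 and COL5A1 had log2 values of -0.17 ± 0.07, -0.11 ± 0.07, -0.07 ± 0.07 and 0.03 ± 0.08. Their edgeR adjusted p-values were 0.268, 0.436, 0.647 and 0.905. FN1, COL4A2 and COL4A1 stood at 0.22 ± 0.09, 0.18 ± 0.07 and 0.13 ± 0.08 (edgeR adjusted p = 0.259, 0.242 and 0.44). Of the 8 substrates 4 had a log2 value above 0. At an unadjusted p under 0.05 in edgeR 2 were higher and 2 lower, and without overlap 1 was higher and 2 lower. COL1A1 was not among the 8.

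All 7 endothelial markers with a model had a higher mean with GW0742, 6 of them without overlap between the groups. These included TEK, at 2 to 10 reads and not tested, which leaves 5 of the 6 tested markers, beside 11.4% of all tested models. The summed level of the 7 was 63.0 to 88.6 CPM in DMSO libraries and 98.4 to 133 CPM in GW0742 libraries. None of the 6 tested passed in edgeR or limma, and their median log2 value was 1.36. All 6 were higher at an unadjusted p under 0.05 in edgeR, beside 7.93% of tested models. DESeq2 called 2 higher, beside 1.46% of tested models. PECAM1, an adhesion protein of endothelial cells, had 11.9, 12.2 and 11.1 CPM with DMSO and 28.3, 35.0 and 15.6 CPM with GW0742, and KDR, the VEGF receptor, 1.31, 1.80 and 1.14 against 3.75, 6.17 and 2.48 CPM. From high to low, the GW0742 libraries came in the order replicate 2, 1, 3 in MMP13, in MMP9 and in 5 of the 7 markers (PECAM1, KDR, TIE1, ESAM and CLDN5), an order found in 17.7% of all tested models and in 22.9% of those higher without overlap. Replicates 2 and 1 were nearly equal in MMP9 (23.3 and 23.1 CPM) and in CLDN5 (66.3 and 65.9 CPM). The order 2, 1, 3 was not confined to endothelial markers. It was also that of the fibroblast markers THY1, LUM and S100A4 and of the chondrocyte markers ACAN, COL11A2 and HAPLN1. The other markers of those lists had other orders. In MMP1 and TEK the order was 2, 3, 1, and in EGFL7 it was 1, 2, 3. Among the DMSO libraries the order was 3, 2, 1 in MMP13, MMP9 and TEK, and 1, 3, 2 in MMP1 and TIE1. It was 2, 1, 3 in PECAM1, KDR and EGFL7, and 2, 3, 1 in ESAM and CLDN5. With DMSO, MMP13 had only 8, 7 and 9 reads and TEK 2, 2 and 4, so their order rests on few reads. CLDN5, the most abundant marker, varied only 1.06-fold between GW0742 libraries. Whether endothelial cells or their RNA had a part in the values of MMP13, MMP9 or MMP1 was not tested.

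**Figure D4:**
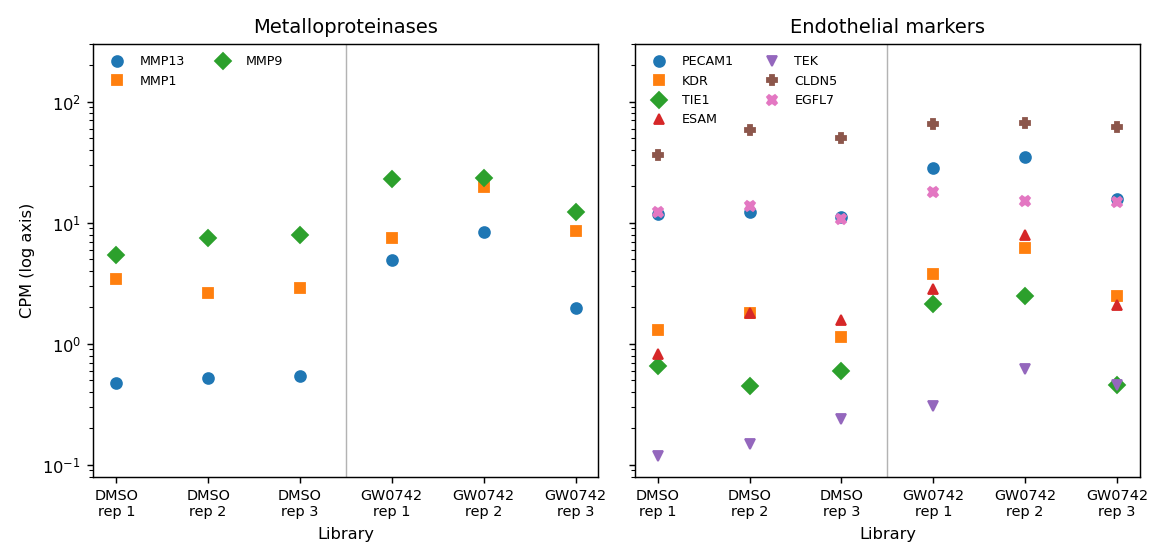
CPM on a log axis of MMP13, MMP1 and MMP9 (left) and of 7 endothelial markers (right) in each of the 6 libraries. MMP13, MMP9, PECAM1, KDR, TIE1 and ESAM are highest in GW0742 replicate 2 and lowest of their group in GW0742 replicate 3, and CLDN5 and EGFL7 are nearly level over the GW0742 libraries.

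Macrophages and osteoclasts are rich sources of MMP9, and of their 7 markers with a model the leukocyte marker PTPRC had 2 to 4 reads in every library and C1QA 0 to 2. CSF1R (6 to 9 reads with DMSO and 8 to 14 with GW0742) and ACP5 (2 to 3 and 3 to 7 reads) were higher in CPM without overlap, at too few reads to be tested. The summed level was 22.0 to 26.1 CPM in DMSO libraries and 25.6 to 28.6 CPM in GW0742 libraries, nearly all of it CD14, and neither tested marker, CD14 or CD68, passed in edgeR, limma or DESeq2 or reached an unadjusted p under 0.05 in edgeR. The 5 keratinocyte markers summed to 3.48 to 4.81 and 3.43 to 5.51 CPM, with CDH1 at 0 reads in 5 libraries and at 4 in the other, and KRT5 and KRT10 had log2 values of 0.55 ± 0.39 and -0.14 ± 0.22. Among fibroblast markers DESeq2 called LUM higher (log2 0.65 ± 0.16) and THY1 lower (log2 -0.28 ± 0.06), and none of 7 passed in edgeR or limma, with 2 higher and 2 lower at an unadjusted p under 0.05 in edgeR. The 5 smooth muscle markers summed to 8124 to 8560 CPM in DMSO libraries and 6168 to 7820 CPM in GW0742 libraries. Replicate 2 of GW0742, the library with most MMP13 and MMP1, was the lowest of them. That library also had the lowest sums of chondrocyte markers (6199 CPM), fibroblast markers (51448 CPM) and keratinocyte markers (3.43 CPM). Its sum of endothelial markers (133 CPM) was the highest. None of the 5 passed in edgeR or limma, and the median log2 value was -0.28. Without overlap 3 were lower, beside 12.1% of all tested models. The same 3 were lower at an unadjusted p under 0.05 in edgeR, a level at which the share of all models lower was not counted. DESeq2 called ACTA2 and CNN1, proteins of the contractile apparatus, lower (adjusted p = 0.00562 and 0.00114), beside 1.65% of tested models. TAGLN had a log2 value of -0.13 ± 0.12. The part of these cells in the values of the members was not tested.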

How the data were processed

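RNA was measured in 3 DMSO and 3 GW0742 libraries. Per the file headers, the authors deposited RPKM and estimated counts by gene model and library, and RPKM again in a series table. The build was Sscrofa10.2, per the submitters' processing notes. Aligner, counter and annotation: not given in the sources used here. A gene name table gave symbols for 11147 models, and RefSeq protein or pathway identifiers (Sscrofa11.1) for 3022 more. As the builds differ, no coordinates are printed.

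Estimated counts were rounded and filtered with filterByExpr (minimum count 10). After TMM scaling, edgeR 4.0.16 (R 4.3.3) ran its quasi-likelihood test, two-sided, with Benjamini-Hochberg adjustment over 14146 models. CPM uses TMM-scaled totals. Read floors (3 reads) and read intervals cover counting error only. Fold intervals (95%) come from the SE and the test's degrees of freedom. Libraries of a group differed by more than sampling noise in every pair (chi-square per degree of freedom 4.06 to 14.9). Alternatives were median-of-ratios scaling, DESeq2 1.42.0, no filter, each library left out, a replicate block, limma 3.58.1 on log2(RPKM + 1) and log2(RPKM + 0.1), and summed models of 1 protein. The tests were tried on simulated data.

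Members and lists were chosen with earlier results of these data known. By rule the text names all 10 members, PPARD, ANGPTL4 and, per list, up to 4 called genes and the 2 most abundant; other genes were named after their values were seen. The values of 1 listed gene are not reported here. PPARD itself had a log2 value of 0.11 ± 0.08 (edgeR adjusted p = 0.499). Sequences were not analysed here.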

Additional observations from a re-analysis of the deposited data

How the results depend on the processing

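Over 9 models of members and 125 alternative values, 110 kept direction and side of the threshold, 7 passed it where all libraries did not (5 in DESeq2, and MMP9 and MMP13 without GW0742 replicate 3), and 8 had the other sign. The 8 belong to members near 0: TIMP2 at 0.0017 without a filter, 0.04 without DMSO replicate 1, 0.01 without GW0742 replicate 2 and 0.02 in each limma fit, against -0.0024 (range over left-out libraries -0.03 to 0.04), and MMP2 at 0.03 without DMSO replicate 2 and without GW0742 replicate 3, against -0.04 (range -0.09 to 0.03). The number of models higher was 26 and lower 11. DESeq2 gave 207 and 234; the cause was not tested. EdgeR without a filter gave 13 and 3, over 19499 models, limma gave 7 and 2 with a pseudocount of 1, 21 and 6 with 0.1, and 7 and 1 with a pseudocount of 1 and no filter. With single libraries left out, between 6 and 54 models were higher and between 0 and 47 lower. Same-numbered libraries did not deviate together (correlations 0.0054, -0.032 and -0.10), so the numbers were not taken as pairs, and edgeR with the replicate block gave 10 higher and 0 lower. The block called no member, with MMP13 at 3.11 (adjusted p = 0.141). The TIMP to MMP ratio, again without the second models, ranged from 2.97 to 3.00 with DMSO and 3.22 to 3.44 with GW0742 over left-out libraries. The share of MMP1, MMP9 and MMP13 ranged from 1.18 to 1.27% and from 3.53 to 5.10%. Depth limits MMP3, TIMP4 and the DMSO level of MMP13.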
